A study of Homo sapiens with 6 samples.

Results

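The genes described here encode acetylcholine receptors: the muscarinic receptor genes CHRM1, CHRM2, CHRM3 and CHRM4 and the nicotinic subunit genes CHRNA3, CHRNA4, CHRNA5, CHRNA7, CHRNB2 and CHRNB4. They were taken by gene name from a table of 19823 genes, in which 9 of the 10 listed genes had a row; CHRM1 had none and was not analysed here. All 9 counted as expressed, that is, had more than 5 reads in at least 4 of the 6 samples. The list was chosen by gene family together with the measured difference of CHRM2 between treated and untreated samples, so the treated and untreated values of the 9 genes, and the counts of calls that fits over all genes gave among them, are a description from which nothing is inferred.

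The samples were excitatory glutamatergic neurons (iNeurons) derived from WTc11, a human line of induced pluripotent stem cells, by doxycycline-inducible expression of the transcription factor NGN2. RNA-seq was carried out on 3 untreated samples and on 3 samples treated with isoproterenol, a β-adrenergic receptor agonist, and the comparison asks which transcripts differ after the receptor is stimulated. All 6 samples, the untreated ones included, carried a knockdown of RBM12 by CRISPR interference, in which a dCas9-KRAB fusion guided to a promoter represses the gene. The line is clonal, was otherwise parental and relied on its native β-adrenergic receptors, and no sample with a nontargeting guide was analysed here. The dose and duration of isoproterenol are not in the sample labels, which also do not say whether replicates were separate cultures, so the spread between samples may in part be technical.

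Acetylcholine acts on 2 unrelated families of receptor. Muscarinic receptors are G protein-coupled: the M1 and M3 types (CHRM1, CHRM3) couple to Gq and phospholipase C, whereas the M2 and M4 types (CHRM2, CHRM4) couple to Gi and Go, which inhibit adenylyl cyclase and open inwardly rectifying potassium channels. Isoproterenol acts on the same second messenger in the opposite sense, because β-adrenergic receptors couple to Gs and raise cAMP. Nicotinic receptors are pentameric cation channels built from α and β subunits. CHRNA4 and CHRNB2 form the most common heteromeric receptor of the brain, CHRNA3 and CHRNB4 that of autonomic ganglia, CHRNA5 joins either as an accessory subunit, and CHRNA7 assembles into a homomeric channel.

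Reads recovered from the deposited counts summed to 18116816 to 21488793 per library over the 19823 genes. RBM12 itself was at 244.3, 278.7 and 266.9 normalized counts (reads divided by the library's size factor) in untreated replicates 1, 2 and 3. After isoproterenol it was at 194.6, 237.6 and 232.8, each below every untreated value. Over all genes tested, 6.19% were likewise lower with no overlap. Without a nontargeting sample these values do not check the knockdown, and the part of this difference in the values below was not tested. The neuronal label was checked against marker genes. All 8 genes of a glutamatergic neuron list had a row. Their summed level was 89503 to 91876 normalized counts in the untreated and 89765 to 94349 in the treated samples. MAP2 (32515 to 34627) and DCX (24975 to 28029) were its largest parts. These 2, TUBB3, RBFOX3, SYN1 and SNAP25 are general neuronal genes, so the sum does not check the glutamatergic label. TUBB3 was low for a neuronal gene, at 69.2 to 94.4, and shares 1584 exonic bases with another protein-coding gene on the same strand, so its count is uncertain. Of 7 markers of cholinergic neurons 6 had a row, summing to 9825 to 11741 untreated and 10566 to 11943 treated, and of 7 markers of peripheral or sensory neurons 6 had a row, summing to 15180 to 16532 and 14173 to 15997. The cultures thus held transcripts of all 3 neuronal lists. In the first list, the vesicular glutamate transporter genes SLC17A6 and SLC17A7 were at 12393 to 14710 and 2968 to 3318 normalized counts. Of the other lists, 3 of 5 inhibitory neuron markers summed to 55.3 to 59.99 untreated and 66.9 to 79.0 treated, 2 of 5 astrocyte markers to 159.8 to 175.1 and 134.4 to 156.8, 2 of 5 smooth muscle or fibroblast markers to 159.3 to 182.9 and 153.9 to 172.6, 2 of 5 proliferation markers to 395.8 to 407.4 and 406.2 to 463.6, and 3 of 5 pluripotency markers to 19.4 to 19.8 and 15.4 to 28.8. The inhibitory and astrocyte sums did not overlap between the groups, which also held for 12.9% of all single genes tested. The members of these lists did not move together. GAD1 and GAD2 were higher in all 3 pairs and SLC32A1 was lower, all at 9.68 to 35.9 normalized counts. AQP4 had means of 114.5 untreated and 94.6 treated, and S100B 50.9 and 50.1. The part of these sums in the values below was not tested. In bulk RNA, fewer cells of a type and less RNA per cell cannot be told apart.

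The upstream sequences of CHRM2 and CHRNB2 are shown because these were the only listed genes whose treated and untreated samples did not overlap. CHRM2 (ENSG00000181072) lies at chr7:136868652-137020255 on the plus strand and CHRNB2 (ENSG00000160716) at chr1:154567778-154580013 on the plus strand. The sequences come from RefSeq (GRCh38.p14), are given 5′ to 3′ on the strand of the gene and end at the base before an annotated start. Capitals mark CGTCA, the reverse complement of TGACG, either of which is a part of TGACGTCA, the site bound by the cAMP-responsive factor CREB.
CHRM2, first start, chr7:136868402-136868651: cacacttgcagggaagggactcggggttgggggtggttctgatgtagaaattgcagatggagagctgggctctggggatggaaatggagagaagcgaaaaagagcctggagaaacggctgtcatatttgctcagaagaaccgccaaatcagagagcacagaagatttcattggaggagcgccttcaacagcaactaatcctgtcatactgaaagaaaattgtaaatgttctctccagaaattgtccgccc
CHRM2, second start, chr7:136868993-136869084: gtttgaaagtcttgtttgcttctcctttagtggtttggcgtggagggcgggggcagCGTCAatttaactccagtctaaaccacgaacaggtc
CHRNB2, chr1:154567528-154567777: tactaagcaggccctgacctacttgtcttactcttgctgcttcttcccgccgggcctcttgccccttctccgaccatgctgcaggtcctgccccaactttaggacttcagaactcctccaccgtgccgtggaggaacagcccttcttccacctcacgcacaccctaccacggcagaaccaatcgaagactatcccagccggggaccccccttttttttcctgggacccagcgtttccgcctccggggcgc
The first CHRM2 sequence and that of CHRNB2 hold neither TGACG nor CGTCA. Another CHRM2 start lies at position 136869246, and the 72 bases before it, not printed, hold neither. In the second CHRM2 sequence CGTCA begins 36 bases before the start at position 136869085. The same CGTCA begins 197 bases before the start at position 136869246. RefSeq promoter windows, 250 bases before to 50 after a start, were found for 8 of the 10 listed genes (11 windows, none for CHRNA4 or CHRNA5). The full TGACGTCA was in 0 of the 11, against 1.85% of 35116 windows of all genes. TGACG or CGTCA on either strand was in 4 of the 11 windows, belonging to CHRM2 and CHRNA7, against 24.6% of all windows. The windows of one gene overlap, so the same CGTCA of CHRM2, and likewise that of CHRNA7, is counted repeatedly among the 4. A match to these letters does not show that a factor binds there.

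CHRM2 transcript was lower after isoproterenol in every pair of same-numbered samples. It was at 1347.0, 1278.2 and 1306.5 normalized counts in untreated replicates 1, 2 and 3 and at 1089.6, 1095.6 and 1079.1 in isoproterenol replicates 1, 2 and 3. The lowest untreated sample stood above the highest treated one, and the means were 1310.6 ± 34.6 and 1088.1 ± 8.35 (SD, n = 3 each). On the scale of log2(normalized count + 1), used for all fold changes here, the difference was -0.27 (SE 0.054, 95% interval -0.38 to -0.15), or -16.9%. The pairs gave -0.31, -0.22 and -0.28. Leaving out any 1 of the 6 samples kept the difference between -0.29 and -0.25. Over all genes tested, 6.19% were lower with no overlap between groups and 17.6% were lower in all 3 pairs.

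The spread of CHRM2 within the groups comes from the same samples whose difference the list was chosen on, so it is a description only. The coefficient of variation of CHRM2 was 2.64% among untreated and 0.768% among treated samples, where read counting alone gives 2.78% and 3.11%. Counting error here is that of reads, which carry no molecular identifiers. CHRNB2 (1.40% and 1.16%, with counting at 1.96% in each group) was also below counting error in both groups. So was CHRM4 (12.3% and 8.16%, with counting at 15.8% and 15.02%), and an SD of 3 samples is itself imprecise. Genes with a mean within 2-fold of that of CHRM2 numbered 4522 and had a median untreated coefficient of variation of 4.58%. Those genes were not chosen on their difference, so the 2 values are not like for like.

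CHRM3, the Gq-coupled M3 receptor gene (ENSG00000133019, chr1:239386565-239915452, plus strand), had similar means in the 2 groups. Untreated replicates 1, 2 and 3 gave 378.0, 304.8 and 366.2 normalized counts and treated replicates 360.2, 319.5 and 358.0, so that the ranges overlapped and replicate 2 was the lowest in both groups. The log2 fold change was -0.01 (SE 0.098, 95% interval -0.22 to 0.19), and leaving out single samples moved it from -0.11 to 0.05. CHRM4, the other Gi-coupled gene of the list (ENSG00000180720, chr11:46383789-46391776, minus strand), was at 35.5, 45.5 and 40.3 untreated and 46.9, 42.7 and 50.3 treated. Its ranges overlapped and its log2 fold change was 0.20 (SE 0.22, 95% interval -0.25 to 0.66), with pairs 1 and 3 higher at 0.39 and 0.31 and pair 2 lower at -0.09. At this level the counting error alone was 15.8% untreated and 15.02% treated, and its interval was the widest of the 9 genes. CHRM4 also shares 49 exonic bases with MDK on the opposite strand.

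**Figure D1:**
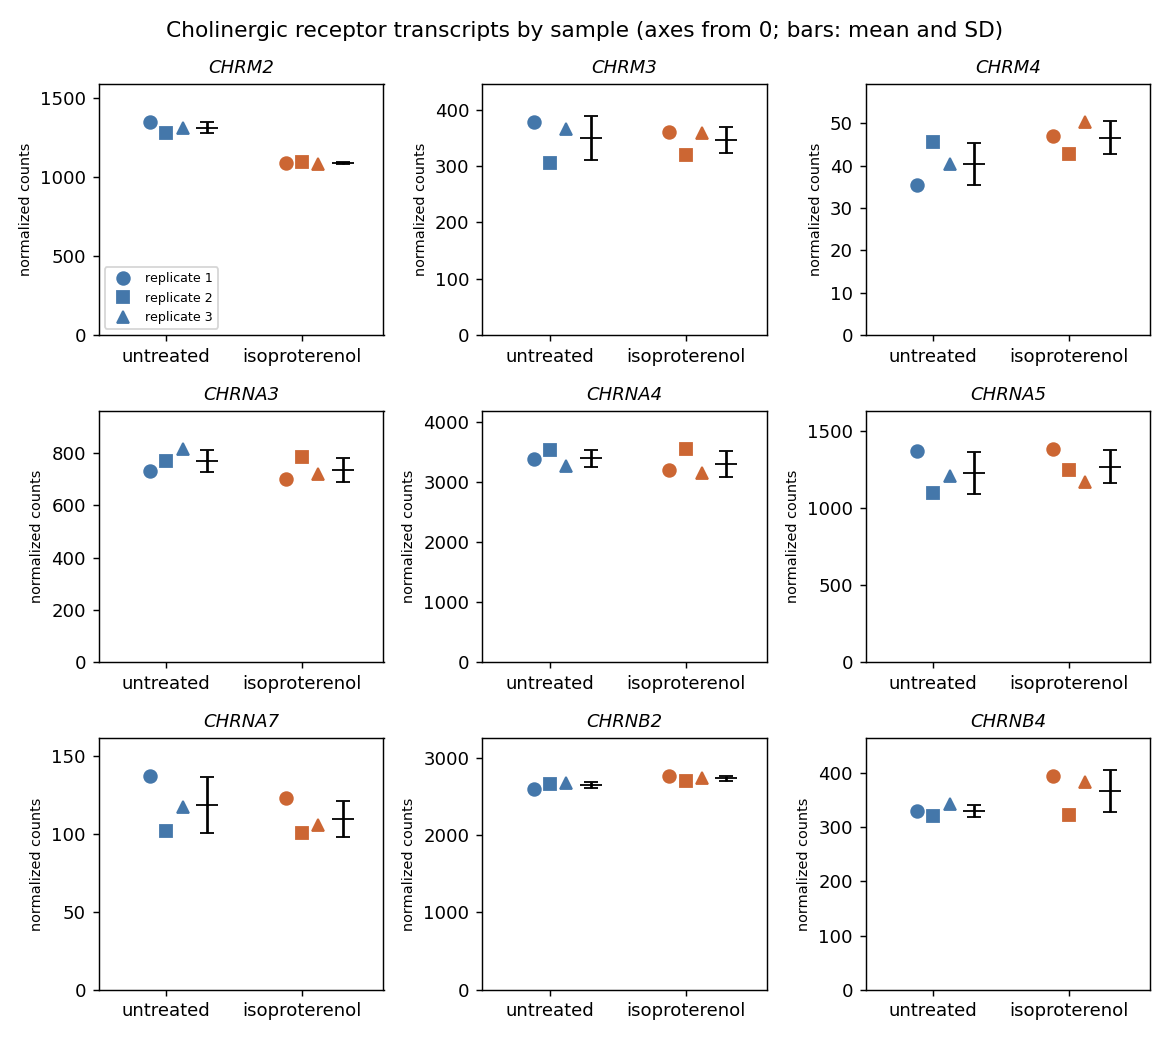
Normalized counts (vertical axes, 1 panel per gene, each with its own scale) of the 9 cholinergic receptor genes in the 3 untreated and 3 isoproterenol-treated samples. Marker shapes give the replicate number, and bars beside the points give the mean and SD (n = 3). The CHRM2 samples lie at 1278 to 1347 untreated and 1079 to 1096 treated, whereas in 7 of the other 8 panels the groups overlap.

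The shares of the muscarinic transcripts are given as levels only, since the CHRM2 difference enters each of them. Per kilobase of exon, the scale on which genes can be compared, CHRM2 made up 81.3% ± 0.429 of the summed CHRM2, CHRM3 and CHRM4 level in untreated and 77.5% ± 1.35 in treated samples (SD, n = 3). The share of CHRM3 was 11.9% ± 1.06 and 13.5% ± 0.753, and that of CHRM4 6.84% ± 1.02 and 9.02% ± 0.656. The summed muscarinic level was 193.4 ± 4.93 normalized counts per kilobase untreated and 168.5 ± 1.85 treated. CHRM2 was thus the main muscarinic transcript measured in both groups.

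The nicotinic α subunit genes showed small differences of both signs, with overlapping groups throughout. CHRNA4 (ENSG00000101204, chr20:63343223-63378401, minus strand) was at 3384.2, 3538.6 and 3257.5 normalized counts untreated and 3193.0, 3545.1 and 3157.3 treated. Replicate 2 was the highest and replicate 3 the lowest in both groups, and the log2 fold change was -0.04 (SE 0.051, 95% interval -0.15 to 0.06). CHRNA3 (ENSG00000080644, chr15:78593052-78621295, minus strand) was at 729.9, 767.3 and 814.1 untreated and 698.5, 784.2 and 719.1 treated, a log2 fold change of -0.07 (SE 0.069, 95% interval -0.22 to 0.07). Its pairs did not share a sign, at -0.06, 0.03 and -0.18.

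CHRNA5, the accessory subunit gene (ENSG00000169684, chr15:78565520-78595269, plus strand), was at 1372.1, 1102.1 and 1213.4 untreated and 1385.0, 1251.3 and 1174.5 treated. Its log2 fold change was 0.05 (SE 0.077, 95% interval -0.11 to 0.21) and took either sign when single samples were left out, from -0.03 to 0.13. Its coefficient of variation was 11.0% untreated and 8.39% treated, above the 2.88% that counting gives in either group. CHRNA7, the homomeric channel gene (ENSG00000175344, chr15:31923438-32173018, plus strand), was at 136.8, 101.6 and 116.9 untreated and 122.7, 100.3 and 105.7 treated. It was lower in all 3 pairs, but its ranges overlapped and its log2 fold change was -0.11 (SE 0.15, 95% interval -0.43 to 0.21).

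The CHRNA7 value is uncertain because part of the gene is duplicated in CHRFAM7A, a fusion gene on the same chromosome. Of the 50-base words in CHRNA7 exons 12.1% recur in CHRFAM7A, and of those in CHRFAM7A 63.9% recur in CHRNA7, so reads can be lost or shared between them. CHRFAM7A was at 32.4, 27.1 and 21.7 normalized counts untreated and 29.9, 31.1 and 33.9 treated, with a log2 fold change of 0.23 (SE 0.26). The sign was opposite to that of CHRNA7, and the groups overlapped.

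CHRNB2, the β partner of CHRNA4, was the other listed gene with separate groups, in the opposite direction to CHRM2 and far smaller in size. It was at 2604.2, 2661.0 and 2674.1 normalized counts untreated and 2763.0, 2700.9 and 2742.9 treated. Every treated sample was above every untreated one, with means of 2646 ± 37.1 and 2736 ± 31.7 (SD, n = 3 each). The log2 fold change was 0.05 (SE 0.044), or 3.37%, with a 95% interval of -0.05 to 0.14, and 6.73% of all genes tested were likewise higher with no overlap. CHRNB4 (ENSG00000117971, chr15:78624111-78727754, minus strand), the β partner of CHRNA3, was at 330.0, 320.3 and 342.4 untreated and 394.1, 322.9 and 383.6 treated. Replicates 1 and 3 were higher by 0.26 and 0.16 on the log2 scale and replicate 2 by 0.01, and the fitted difference was 0.14 (SE 0.094, 95% interval -0.05 to 0.34). Treated replicate 2 fell within the untreated range and the other 2 treated samples lay above it.

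**Figure D2:**
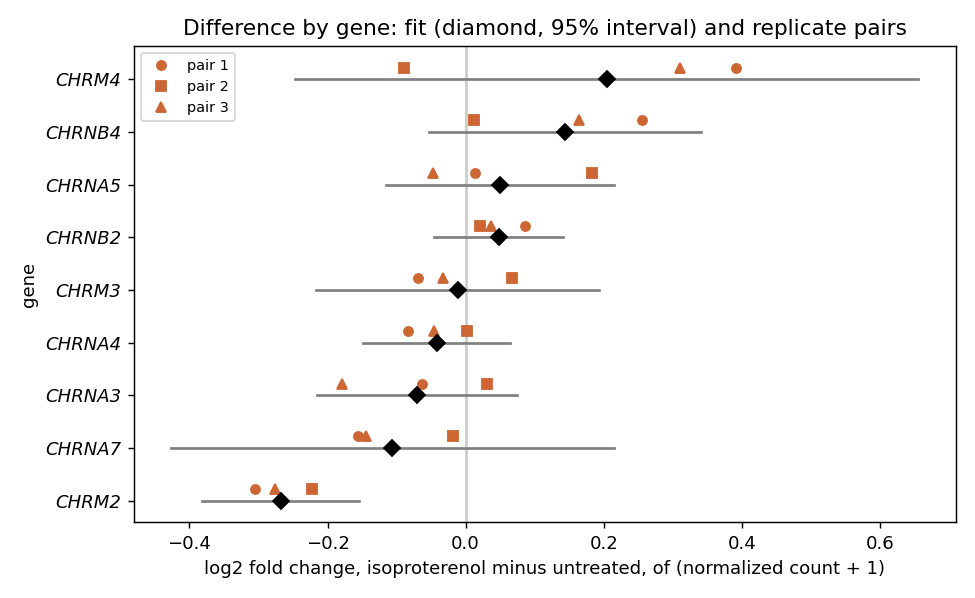
Log2 fold change of each cholinergic receptor gene (horizontal axis, isoproterenol minus untreated), with the fitted value and its 95% interval and the 3 pairs of same-numbered samples. The fitted values run from -0.27 for CHRM2, whose difference the list was chosen on, to 0.20 for CHRM4, which has the widest interval.

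Because the contrast had chosen the list, the counts that follow are given beside those of all genes and nothing is read from them. The median log2 fold change of the 9 genes was -0.011, beside 0.0015 for all 18130 genes tested, with 4 genes higher and 5 lower. At a false discovery rate of 0.05 in limma without pairing 0 of the 9 were called, where 0.0165% of all genes were (0.00552% higher and 0.011% lower). With the replicate number as a block CHRM2 alone was called lower and 0 higher, where 4.88% of all genes were called, 2.82% higher and 2.06% lower. The block fits in edgeR and DESeq2 also called CHRM2 alone, where 5.39% and 0.789% of all genes were called. DESeq2 without a block also called 1 of the 9, CHRM2, among 0.116% of all genes, and edgeR without a block called 0 among 0.0165%. At an unadjusted p under 0.05 limma listed 1 of the 9, beside 7.68% of all genes. Groups did not overlap for 2 of the 9 genes, beside 12.9% of all genes, and 4 of the 9 moved the same way in all 3 pairs (CHRM2 and CHRNA7 lower, CHRNB2 and CHRNB4 higher), beside 36.1%.

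The genes CHRNA5, CHRNA3 and CHRNB4 lie side by side within chr15:78565520-78727754, a cluster known for its link to nicotine dependence. CHRNA5 is read from the plus strand and the other 2 from the minus strand, and CHRNA3 and CHRNA5 share 198 exonic bases. The log2 fold changes of the 3 neighbours were 0.05, -0.07 and 0.14. The libraries came from a directional kit, but the strand setting of the counting is not given in the sources used here, and without it reads in shared bases cannot be told apart. CHRNA5 shares a further 832 bases with a long noncoding RNA on the opposite strand. With other such RNAs CHRNB4 shares 165 bases, CHRNA4 518, CHRNB2 321 and CHRM3 269 and 14. CHRM2 shares no exonic base with another annotated gene.

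Levels differed far more between the genes than between treatments. In normalized counts per kilobase of all annotated exons, CHRNB2 was highest with a mean over the 6 samples of 457.5, followed by CHRNA5 at 344.9 and CHRNA4 at 281.2. CHRNA3 at 158.0 and CHRM2 at 143.8 came next and their sample ranges overlapped, the CHRM2 means being 157.2 ± 4.15 untreated and 130.5 ± 1.002 treated. Below them were CHRNB4 at 70.0, CHRM3 at 22.9, CHRM4 at 14.2 and CHRNA7 at 5.37, each separated from its neighbours in every sample. The order depends on the transcript length used. With the length of the canonical transcript alone, CHRNA4 stood first at 599.3 and CHRNA7 at 18.5 came above CHRM4 at 14.3.

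**Figure D3:**
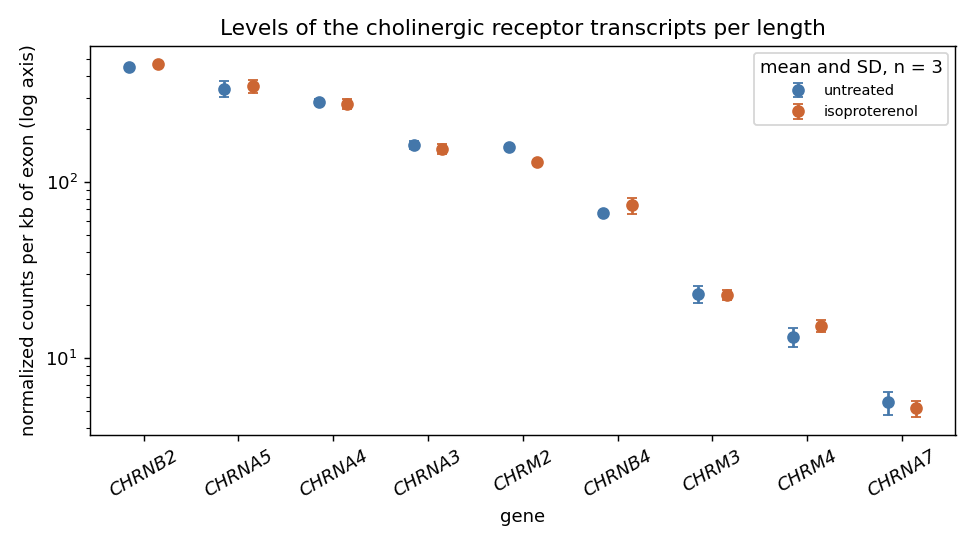
Normalized counts per kilobase of exon (vertical log axis) of the 9 genes, ordered by their mean over the 6 samples, with the mean and SD (n = 3) of each group. CHRNB2 is highest at 457.5 and CHRNA7 lowest at 5.37, and CHRM2 is at 157.2 untreated and 130.5 treated.

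Among nicotinic transcripts the composition was nearly the same in both groups. Over the 13 nicotinic genes with a row, CHRNB2 made up 23.9% ± 0.686 of the summed level per kilobase untreated and 24.0% ± 0.201 treated. CHRNA5 made up 18.0% and 18.1%, CHRNA4 15.1% and 14.3%, CHRNA3 8.59% and 7.97%, and CHRNB4 3.52% and 3.80%. Of subunits outside the list, CHRNB3 took 14.6% and 14.8%, CHRNA6 10.5% and 10.8%, and CHRNB1, the muscle-type β subunit gene, 4.80% and 4.87%. The summed nicotinic level was 1885 ± 31.5 per kilobase untreated and 1936 ± 32.3 treated, and the difference was not tested.

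Transcripts that most resembled CHRM2 across the 6 samples were sought among 11586 genes that averaged 100 normalized counts or more. By Pearson correlation of log2 values the 5 closest were ANKRD16 (r = 0.992), ADH5 (0.989), PARM1 (0.987), TAF11 (0.980) and HADHA (0.979), and 43 genes reached 0.95. ADH5 is an alcohol dehydrogenase that metabolises formaldehyde adducts, TAF11 a subunit of the general transcription factor TFIID and HADHA an enzyme of mitochondrial fatty acid oxidation. Mean levels in untreated and treated samples were 154.6 and 122.7 normalized counts for ANKRD16, 2314 and 2087 for ADH5 and 1435 and 1207 for PARM1. All 6 points of each correlation come from the same 2 groups and libraries, so any gene that is steady within groups and lower after treatment ranks high.

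The remaining genes of the acetylcholine pathway were taken from 4 lists that hold no listed receptor gene, 54 genes in all, of which 48 had a row and 47 passed the filter on low reads. In limma without pairing 0 of the 47 passed a false discovery rate of 0.05 (smallest adjusted p = 0.349), 9 had an unadjusted p under 0.05 (7.68% of all genes did), and edgeR and DESeq2 without a block also called 0. With the replicate block 3 were called higher and 5 lower, beside 4.88% of all genes. The block calls were also 8 in edgeR, beside 5.39% of all genes, and 0 in DESeq2, beside 0.789%. The median log2 fold change of the 47 was 0.025, with 29 higher and 18 lower. Groups did not overlap for 8 of the 47, beside 12.9% of all genes, so a lack of overlap does not by itself mark out the genes below.

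Of 11 other receptor subunit genes 7 had a row and 6 passed the filter, and 0 of the 6 were called with or without the block. Their log2 fold changes were 0.06 to 0.32, with a median of 0.096. The most abundant, CHRNB3, was at 718.4, 783.8 and 634.1 normalized counts untreated and 777.3, 776.1 and 686.2 treated. CHRNE, the adult muscle ε subunit gene, did not pass the filter, and CHRM5, CHRNA1, CHRNA9 and CHRNG were not analysed here.

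Genes that make, move and degrade acetylcholine were expressed in these glutamatergic cultures. CHAT, which synthesises acetylcholine, was at 503.3, 437.4 and 419.0 untreated and 529.8, 437.1 and 462.6 treated, with a log2 fold change of 0.07 (SE 0.091). SLC18A3, the vesicular acetylcholine transporter gene, gave -0.06 (SE 0.055) and ACHE, encoding acetylcholinesterase, 0.03 (SE 0.049), both with overlapping groups. BCHE, encoding butyrylcholinesterase, was at 201.5, 154.8 and 195.5 untreated and 248.5, 201.8 and 213.4 treated. Its groups did not overlap and its log2 fold change was 0.27 (SE 0.13, adjusted p = 0.643 in limma and 0.143 with the block).

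SLC5A7, the high-affinity choline transporter gene, was the only gene of this list called with the block. It was at 7696.8, 6419.2 and 7969.5 untreated and 7995.6, 7105.2 and 8420.5 treated, a log2 fold change of 0.09 (SE 0.10, adjusted p = 0.882 in limma and 0.00690 with the block). Replicate 2 was the lowest in both groups, and each pair was higher after treatment, by 0.05, 0.15 and 0.08. Of the 9 genes tested in this list 7 were higher and 2 lower, with a median of 0.055.

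Among genes for nicotinic receptor assembly and modulation, TMEM35A and LYPD1 were called with the block. TMEM35A encodes NACHO, a chaperone needed for CHRNA7 receptors, and was at 3689.2, 3385.7 and 3505.8 untreated and 4010.2, 3715.8 and 3709.2 treated. Its groups did not overlap, and its log2 fold change was 0.11 (SE 0.048, adjusted p = 0.596 in limma and 0.0103 with the block). LYPD1, a membrane-anchored inhibitor of nicotinic receptors, was lower in each pair, with a log2 fold change of -0.16 (SE 0.076, adjusted p = 0.648 in limma and 0.0351 with the block). LYPD1 shares 1180 exonic bases with GPR39 on the opposite strand. The 11 genes tested had a median of -0.012, with 4 higher and 7 lower.

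Genes that carry the muscarinic signal, 21 of the 47 tested, included 5 of the 8 block calls in limma. That fit called 4.88% of all genes, and DESeq2 with the block called 0 of the 47. RGS4, which speeds the shut-off of Gi and Gq signals, was at 1262.4, 1158.2 and 1265.2 untreated and 1091.6, 1002.2 and 1094.5 treated. Its groups did not overlap, each pair was lower by about the same amount, and its log2 fold change was -0.21 (SE 0.060, adjusted p = 0.349 in limma and 0.00119 with the block). GNAI1, an α subunit of Gi, through which CHRM2 signals, was at 4353.3, 4464.6 and 4459.6 untreated and 4061.1, 4121.8 and 3891.7 treated. Its groups did not overlap either, with a log2 fold change of -0.14 (SE 0.042, adjusted p = 0.399 in limma and 4.05e-04 with the block).

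A potassium channel gene on this list was also called lower with the block. KCNJ9, a G protein-gated inward rectifier subunit gene, was at 1097.5, 1280.2 and 1102.7 untreated and 993.8, 1069.1 and 1039.1 treated, a log2 fold change of -0.16 (SE 0.066, adjusted p = 0.595 in limma and 0.0265 with the block). GNA11, a Gq-family α subunit gene, was higher, at 0.12 (SE 0.055, adjusted p = 0.629 in limma and 0.0281 with the block). Over the 21 genes tested 12 were higher and 9 lower, with a median of 0.010, and the block calls were 1 higher and 4 lower. In the block fit without 1 of the 3 pairs, RGS4 was called each time, SLC5A7 and GNAI1 in 2 of 3, TMEM35A, GNA11 and KCNJ9 in 1 of 3, and LYPD1 in 0 of 3.

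**Figure D4:**
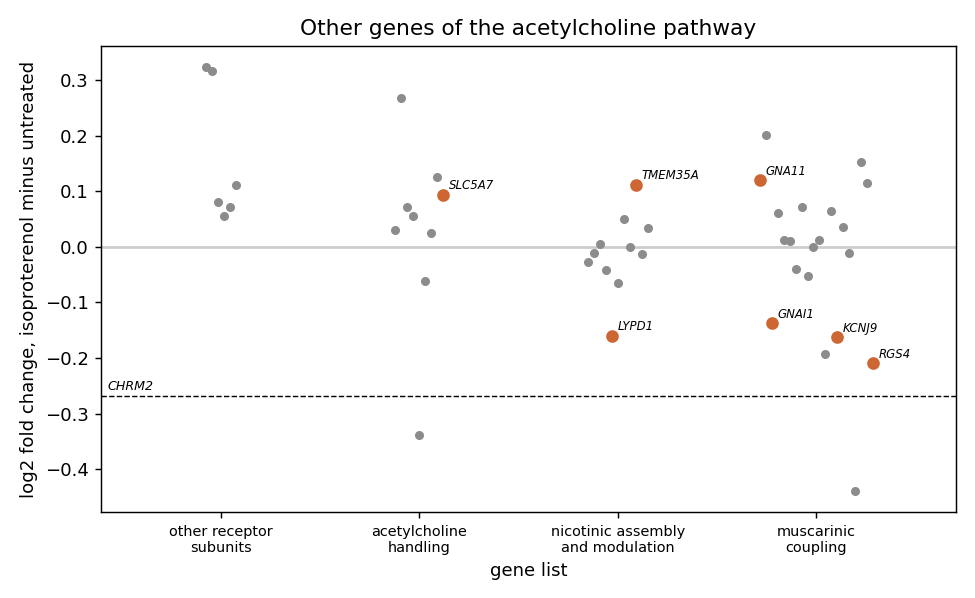
Log2 fold change (vertical axis, isoproterenol minus untreated) of 46 of the 47 tested acetylcholine pathway genes, in 4 lists, with genes called in limma with the replicate block coloured and named and the value of CHRM2 as a dashed line. The 7 named genes lie between -0.21 and 0.12, and the genes not called spread from -0.44 to 0.32.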

How the data were processed

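Poly(A) RNA of 6 samples was sequenced from directional libraries. Per the labels and the study's methods, the authors aligned reads to GRCh38 with STAR, counted them with featureCounts, removed genes with few reads and deposited DESeq2-normalized counts, a signal scale of reads divided by a size factor (0.867 to 1.033). Tool versions, the annotation release and the counting strand are not given in the sources used here. Multiplying by these factors gave whole reads for 100% of values (tolerance 0.01 reads).

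From the deposited counts, genes with more than 5 reads in at least 4 samples were kept (18130; 1693 were removed). log2(normalized count + 1) was fitted in limma 3.58.1 (R 4.3.3; trend and robust) with Benjamini-Hochberg adjustment over all genes. edgeR 4.0.16 and DESeq2 1.42.0 on the recovered reads were alternatives, as were other scalings, filters and pseudocounts, samples left out and a replicate block. Same-numbered samples deviated together, with correlations of 0.269, 0.493 and 0.388 over 11587 genes, where other matchings averaged at most 0.163. Neither the titles nor the paper states a pairing, so the pairs and the block rest on the replicate numbers alone. Exon lengths and positions came from GENCODE 44, which held 99.6% of the gene IDs. Named pathway genes were those called with or without the block plus CHAT, SLC18A3, SLC5A7, ACHE, BCHE and CHRM5, and for CHRM2 the 5 genes of highest correlation. Of the called pathway genes, 1 is counted but not reported here. CHRNB3, CHRNA6, CHRNB1 and CHRNE were named after their values were seen. CHRFAM7A was named as a partial copy of CHRNA7. The receptor genes and all lists were chosen with earlier results of these data known. The limma and edgeR fits, with and without the block, were also run on simulated counts that had a replicate effect built in. The DESeq2 fits were not. The simulated counts were paired by design, so they do not check the block calls in these data, and no result from them is quoted.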

Additional observations from a re-analysis of the deposited data

How the results depend on the processing

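CHRM2 kept its sign under all 21 alternatives, with log2 fold changes of -0.29 to -0.25, and whether it was called depended on the fit. The number of receptor genes called, 0 in limma, became 1 (CHRM2) in DESeq2, and 1 with the replicate block in limma, edgeR and DESeq2 and in the block fits without replicate 1, 2 or 3 of both groups. The pathway calls, 0 in limma, became 8 in limma and 8 in edgeR with the block, and 4, 3 and 4 in the block fits without replicate 1, 2 and 3 of both groups. Calls over all genes, 3 in limma, became 21 in DESeq2, 885, 977 and 143 with the block in limma, edgeR and DESeq2, and 531, 665 and 456 in the block fits without replicate 1, 2 and 3. Leaving out 1 sample without the block gave 2 to 67 calls, the highest without isoproterenol replicate 2. The cause was not tested.

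The median log2 fold change of the receptor genes, -0.011, ranged from -0.026 to 0.045 with 1 sample left out and was -0.051 in the block fit without replicate 2 of both groups. With 1 sample left out, CHRM3 ranged from -0.11 to 0.048, CHRNA5 from -0.026 to 0.13 and CHRNA7 from -0.21 to 0.0025. CHRM3 changed sign without untreated replicate 1 (0.048), untreated replicate 3 (0.025) or isoproterenol replicate 2 (0.045) and in the block fit without replicate 1 (0.017). CHRNA7 changed sign without untreated replicate 1 (0.0025). CHRNA5 changed sign without untreated replicate 2 (-0.026) or isoproterenol replicate 1 (-0.014) and in the block fit without replicate 2 (-0.017). CHRM4 could not be fitted with a mean of at least 50, which it does not reach. Fits without 1 sample leave 2 in a group. Among the 9 receptor genes depth limits CHRM4 most, with a counting error of 15.8% untreated.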
